A study of Homo sapiens with 8 samples.

Results

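The trefoil factors TFF1, TFF2 and TFF3 were followed across a human hepatic cell line, its gene-edited derivative and that derivative after bioprinting, together with 6 other genes of mucosal secretion: AGR2, AGR3, MUC1, MUC13, SPINK1 and PDZK1IP1. These 9 genes are 9 of 58735 annotated genes, 19951 of them protein-coding. They were picked by name, with their values in all 8 libraries already known, so their levels and fold changes are given as a description without a test. The libraries formed 3 groups. M14A printed (2 libraries) was M14A mixed into the bioink GP, bioprinted and collected 4 hours after printing. M14A plate (3 libraries) was the same line grown flat in flasks, and HepaRG plate (3 libraries) was the unedited parent, labelled WT, grown the same way. M14A is HepaRG with the genotype label FoxM1/HNF4A transfected, and the sources used here do not say whether it is 1 clone. HepaRG is a human liver progenitor line that can give rise to hepatocyte-like and biliary-like cells, and all samples were labelled as hepatic stem cells. Printed constructs were snap-frozen and ground, whereas cells from flasks were pelleted after detachment, so effects of printing and of collection cannot be told apart. Levels are FPKM, the authors' fragment density per length of gene and size of library.

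Trefoil factors are small secreted peptides built around the trefoil domain, a fold held together by disulfide bonds between cysteines, and they are released with mucins onto the surface of the gut. TFF1 and TFF2 are best known from gastric mucous cells and TFF3 from intestinal goblet cells, while bile duct epithelium can also make trefoil factors. AGR2 and AGR3 belong to the protein disulfide isomerase family of the endoplasmic reticulum, MUC1 and MUC13 are mucins anchored in the cell membrane, SPINK1 is a secreted trypsin inhibitor, and PDZK1IP1 is a small membrane protein that binds the scaffold protein PDZK1.

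The coding sequence of TFF2 is shown because it makes the trefoil fold visible as a repeat: TFF2 holds a pair of trefoil domains, each with its own run of cysteines. It was read from a GENCODE 29 transcript on GRCh38 (chr21:42346533-42350957) and runs 5′ to 3′ on the minus strand, with in-frame TGC and TGT codons, which encode cysteine, in capitals. TFF2 has 15 such codons in 390 bases, and its bases 85 to 384, with 14 of them, are shown.
TFF2: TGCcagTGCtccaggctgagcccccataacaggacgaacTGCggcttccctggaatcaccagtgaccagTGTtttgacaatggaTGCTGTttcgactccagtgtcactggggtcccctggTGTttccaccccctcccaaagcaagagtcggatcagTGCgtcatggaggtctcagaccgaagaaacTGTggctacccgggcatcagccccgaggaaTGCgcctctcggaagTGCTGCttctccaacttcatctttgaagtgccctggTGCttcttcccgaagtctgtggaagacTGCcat
TFF1, TFF2 and TFF3 lie next to each other on chromosome 21, and none of their annotated exon bases lie in another gene.

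TFF3 showed the widest range among the trefoil factors. It stood at 92.1 and 78.9 FPKM in M14A printed, at 25.7, 24.7 and 23.2 FPKM in M14A plate, and at 0.182, 0.112 and 0.0818 FPKM in HepaRG plate. No library of a group overlapped the next group, and TFF3 was near its detection limit in HepaRG plate, where all 3 libraries together held 9 reads. In M14A plate against HepaRG plate its log2 fold change was 4.51 (SE 0.12, 95% interval 4.24 to 4.77) on log2(FPKM + 1), a scale on which low genes appear to change less than they do. The ratio of reads, scaled by the library sizes implied by the authors' FPKM, was 199. Its 95% interval of 105 to 437 covers counting error only. Within M14A, printed against plate, TFF3 was 3.48-fold higher on the ratio of mean FPKM, and its log2 fold change was 1.76 (SE 0.13).

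TFF2 followed the same order at lower levels. It stood at 20.3 and 15.8 FPKM in M14A printed, at 8.75, 8.39 and 6.73 FPKM in M14A plate, and at 0.960, 0.734 and 0.633 FPKM in HepaRG plate, again without overlap between groups. The log2 fold change of TFF2 was 2.33 (SE 0.15) in M14A plate against HepaRG plate and 1.09 (SE 0.17) in M14A printed against M14A plate. TFF2 was thus the more abundant trefoil factor per length in HepaRG plate, and TFF3 in both M14A groups. The TFF3 level divided by the TFF2 level of the same library was 4.53 and 4.99 in M14A printed, 2.94, 2.95 and 3.45 in M14A plate, and 0.189, 0.152 and 0.129 in HepaRG plate. This ratio does not depend on how libraries are scaled.

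TFF1, the gastric trefoil factor, was barely seen. It stood at 0.542 and 0.112 FPKM in M14A printed, 0.454, 0.0929 and 0.0922 FPKM in M14A plate and 0 in each HepaRG plate library, which corresponds to 4 and 1 reads in M14A printed, 4, 1 and 1 reads in M14A plate and none in HepaRG plate. A floor of 3 reads over the HepaRG plate group is worth 0.0868 FPKM. The TFF1 rate in M14A plate was 2.27 times that floor. This is no lower bound, since it leaves out the counting error of the 6 reads in M14A plate. The M14A printed and M14A plate values overlapped, and the ratio of their reads was 1.55 with a counting interval of 0.375 to 6.11. The 3 neighbouring trefoil genes thus spanned from 6 to 1578 reads, summed over the 3 M14A plate libraries.

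**Figure D1:**
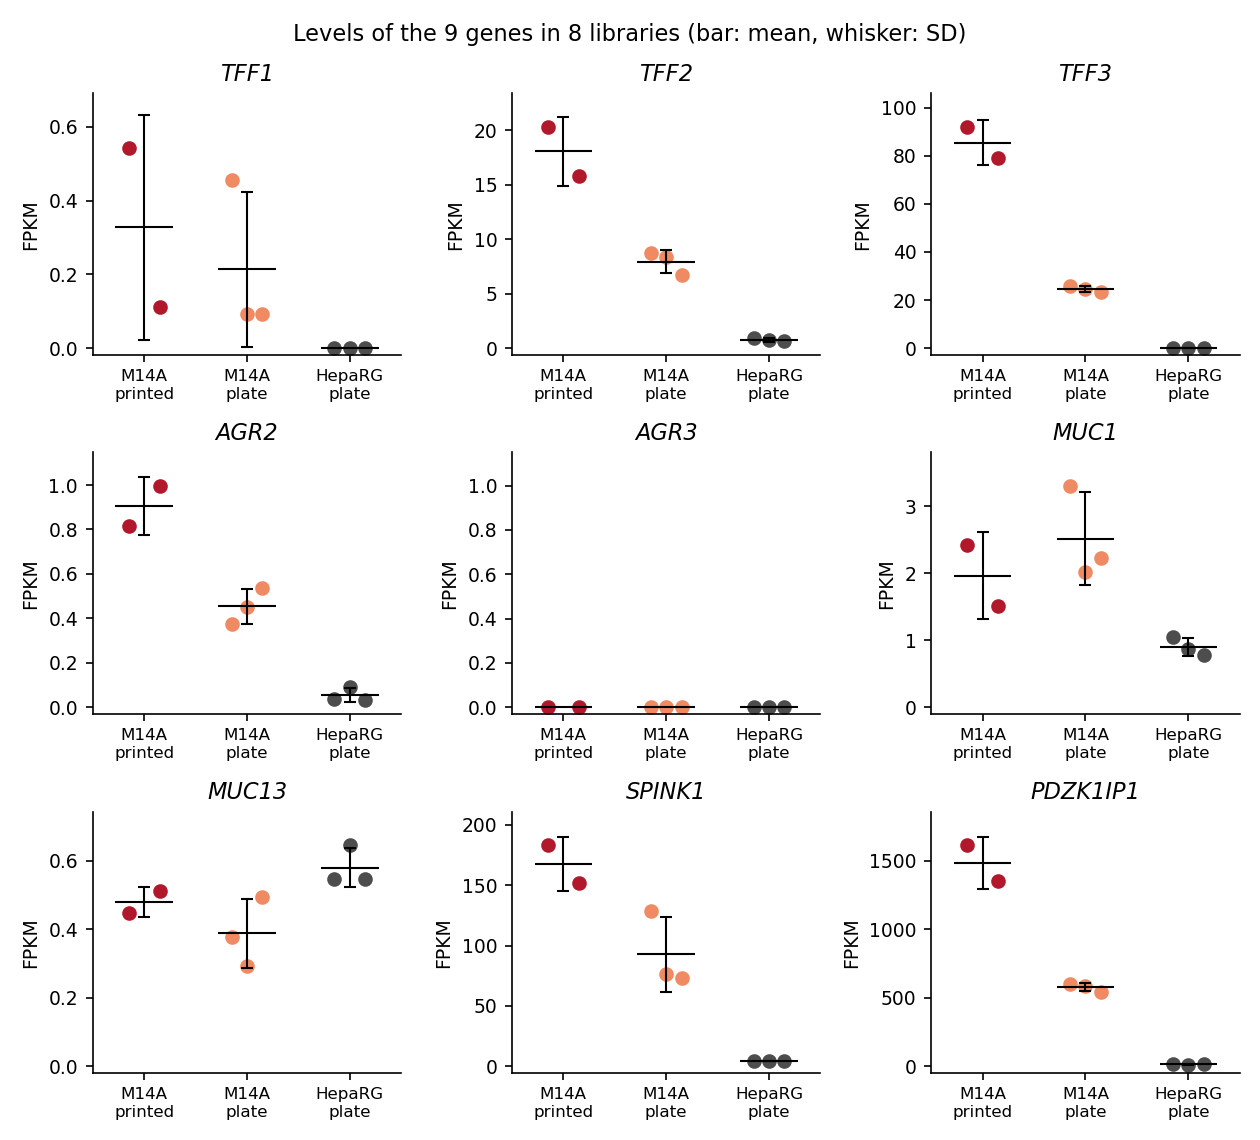
Levels in FPKM (y axis, linear, a separate scale for each gene) of the 9 genes in the M14A printed, M14A plate and HepaRG plate groups; each point is 1 library, the bar is the mean and the whisker the SD. TFF2, TFF3, AGR2, SPINK1 and PDZK1IP1 step down from M14A printed over M14A plate to HepaRG plate without overlap, MUC1 overlaps between both M14A groups, MUC13 is highest in HepaRG plate, and AGR3 is at 0 throughout.

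AGR2 helps to fold mucins in the endoplasmic reticulum of the mouse intestine. It was low but ordered like TFF2 and TFF3. AGR2 stood at 0.814 and 0.997 FPKM in M14A printed, 0.374, 0.450 and 0.536 FPKM in M14A plate and 0.0373, 0.0917 and 0.0336 FPKM in HepaRG plate, and the groups did not overlap. From 72 reads in M14A plate and 10 in HepaRG plate its read ratio was 8.19, with a counting interval of 4.21 to 17.8. From 77 reads in M14A printed against the same 72 in M14A plate the ratio was 1.99, with an interval of 1.43 to 2.79. AGR3, its paralog at chr7:16859405-16881987 beside AGR2 at chr7:16791811-16833433, had 0 reads in all 8 libraries. A count of 0 allows up to 3 reads over a group, worth 0.0874 FPKM in M14A printed, 0.0469 FPKM in M14A plate and 0.0412 FPKM in HepaRG plate.

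The membrane mucins did not follow the trefoil factors. MUC1 (chr1:155185824-155192916) stood at 2.42 and 1.504 FPKM in M14A printed, 3.30, 2.02 and 2.22 FPKM in M14A plate and 1.05, 0.867 and 0.780 FPKM in HepaRG plate. All M14A plate libraries lay above all HepaRG plate libraries, with a log2 fold change of 0.87 (SE 0.17). Both M14A groups overlapped, and the log2 fold change of MUC1 in M14A printed against M14A plate was -0.25, with a 95% interval of -0.69 to 0.20. Of the exon bases of MUC1, 1.02% also lie in an exon of another gene. MUC13 (chr3:124905442-124953819) stood at 0.448 and 0.511 FPKM in M14A printed, 0.376, 0.293 and 0.494 FPKM in M14A plate and 0.546, 0.646 and 0.546 FPKM in HepaRG plate. MUC13 was the only member whose M14A plate libraries all lay below the HepaRG plate libraries, with a read ratio of 0.666 and a counting interval of 0.494 to 0.893. Its M14A printed and M14A plate values overlapped, with a read ratio of 1.24 and an interval of 0.851 to 1.80.

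SPINK1 (chr5:147824568-147831786), the trypsin inhibitor best known from the pancreas, stood at 184 and 151 FPKM in M14A printed, at 128, 76.4 and 73.4 FPKM in M14A plate and at 4.02, 4.29 and 4.07 FPKM in HepaRG plate. The groups did not overlap, and M14A plate library 1 lay far above the other two of its group. The log2 fold change of SPINK1 was 4.14 (SE 0.21) in M14A plate against HepaRG plate and 0.89 (SE 0.24) in M14A printed against M14A plate. Without M14A plate library 1 these values were 3.89 and 1.15.

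PDZK1IP1 (chr1:47183593-47191044), also called MAP17, was the most abundant member in every library. It stood at 1616 and 1349 FPKM in M14A printed, at 601, 585 and 543 FPKM in M14A plate and at 13.5, 11.2 and 13.1 FPKM in HepaRG plate, with no overlap. Its log2 fold change was 5.41 (SE 0.13, 95% interval 5.12 to 5.71) in M14A plate against HepaRG plate, at rank 6 among 14349 genes on log2(FPKM + 1). That rank depends on the scale, on which low genes appear to change less. TFF3, at rank 15, had a ratio of mean FPKM of 196, against 45.8 for PDZK1IP1. In printed over plate M14A libraries, the log2 fold change of PDZK1IP1 was 1.36 (SE 0.15). Ordered by level among protein-coding genes of the same library, it held ranks 25 and 26 in M14A printed, 39, 29 and 29 in M14A plate, and 2891, 3458 and 3027 in HepaRG plate. It alone made up 84.3 and 84.4% of the summed FPKM of all members in M14A printed, 78.2 to 83.9% in M14A plate and 62.3 to 68.0% in HepaRG plate.

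**Figure D2:**
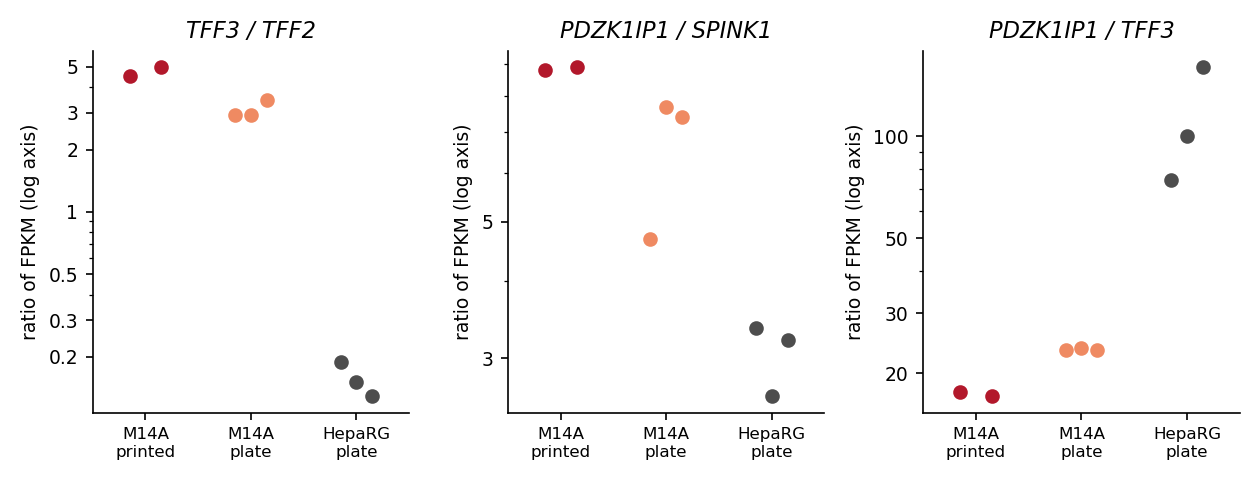
Ratio of the levels of 2 members within the same library (y axis, log scale, no unit) for TFF3 over TFF2, PDZK1IP1 over SPINK1 and PDZK1IP1 over TFF3, with 1 point per library in the M14A printed, M14A plate and HepaRG plate groups. TFF3 over TFF2 is above 1 in all M14A libraries and below 1 in all HepaRG plate libraries, and PDZK1IP1 over TFF3 runs the other way, with its lowest value, 17.1, in M14A printed and its highest, 160, in HepaRG plate.

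The abundant members did not differ between the groups by the same factor. PDZK1IP1 over SPINK1 was 8.80 and 8.90 in M14A printed, 4.69, 7.67 and 7.39 in M14A plate and 3.36, 2.60 and 3.21 in HepaRG plate, where M14A plate library 1 gave the low value of its group. PDZK1IP1 over TFF3 was 17.5 and 17.1 in M14A printed, 23.4, 23.7 and 23.4 in M14A plate and 74.3, 99.9 and 160 in HepaRG plate, the last group resting on the 9 reads of TFF3. Relative to PDZK1IP1, TFF3 was thus higher in both M14A groups than in HepaRG plate, and higher in M14A printed than in M14A plate.

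Over all genes, limma was fitted to log2(FPKM + 1) of the 14349 genes that reached 1 FPKM in 2 or more libraries. Genes under 0.05 in Benjamini-Hochberg adjusted p over that whole set count as called, which were 30.9% of them in M14A plate against HepaRG plate and 33.2% in M14A printed against M14A plate. The filter was passed by 5 members, TFF2, TFF3, MUC1, SPINK1 and PDZK1IP1, and TFF2, TFF3 and MUC1 passed it only through their M14A libraries, since fewer than 2 of their HepaRG plate libraries reached 1 FPKM. Genes of that kind made up 771 of the 2317 called higher in M14A plate. In M14A plate against HepaRG plate 5 of these 5 were called higher, where 16.1% of all tested genes were. Counted over all 9 genes without the filter, 7 were higher without overlap, MUC13 was lower without overlap and AGR3 was at 0. The matching shares over all tested genes were 25.7% higher and 27.4% lower. On the M14A side, printed against plate, 4 of the 5 were called higher, where 17.7% of all tested genes were. That count was 3 when either M14A printed library was left out, without M14A plate library 2 or 3, with only these groups in the fit and with length and GC trends removed. Over all 9 genes 5 were higher without overlap, where 26.9% of tested genes were, none was lower without overlap, where 24.4% were, and 4 overlapped. Since the members were chosen on these same values, nothing is read from these counts. The median log2 fold change of the members that passed was 4.14 in M14A plate against HepaRG plate, where that of all tested genes was -0.04. For M14A printed over M14A plate, it was 1.09, where that of all tested genes was 0.01. These medians rest on the same chosen values and on members that the filter favoured, so nothing is read from them either.

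**Figure D3:**
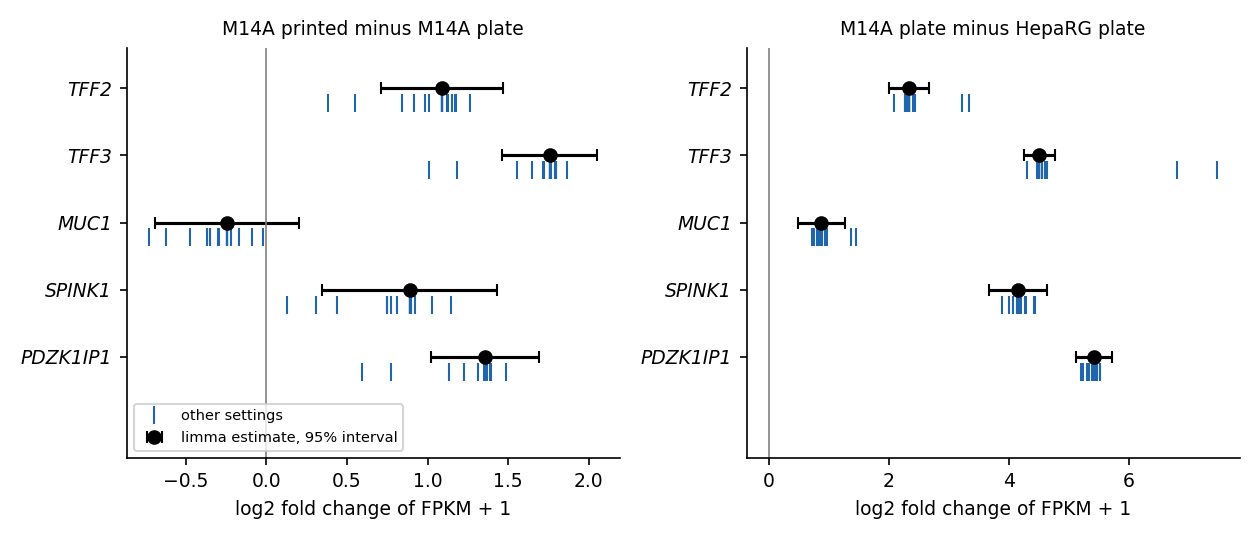
Log2 fold change of FPKM + 1 (x axis) of the 5 members that passed the filter, in M14A printed minus M14A plate (left) and M14A plate minus HepaRG plate (right). Black points are limma estimates with 95% intervals and blue ticks the same value under other settings of scaling, filter, pseudocount and left-out libraries. TFF2, TFF3, SPINK1 and PDZK1IP1 are above 0 in both panels under each setting, while MUC1 is below 0 on the left under each setting that tested it; its black interval there includes 0, although at equal FPKM totals it was called lower.

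The M14A plate libraries enter both comparisons, whose values are therefore only given side by side. The printed values depend on how libraries are scaled, because total FPKM differed between libraries. The library size implied by the FPKM was 0.818 and 0.853 times the recovered reads in M14A printed. It was 0.968 to 1.19 times those reads in M14A plate and 1.18 to 1.20 times in HepaRG plate. The members' read ratios carry the same scaling. Scaled by recovered reads, M14A printed values would be lower relative to M14A plate. At equal FPKM totals the median of all genes between M14A printed and M14A plate moved to -0.51 on the log2 scale. The log2 fold change of TFF3 was then 1.01, of PDZK1IP1 0.59, of TFF2 0.38, of SPINK1 0.13 and of MUC1 -0.73. This scaling multiplies each library by 1 factor, so it moves the members and the median together. Nothing is read from the members' places relative to that median. The share of higher genes among those called was then 6.96%, where it was 53.3% in the deposited scaling, while 2 members were called higher and 1, MUC1, lower.

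The libraries held 15632154 to 19148262 reads recovered from the values. HNF4A, named in the genotype label, averaged 15.4 ± 2.50 FPKM in M14A printed (SD, n = 2). It averaged 40.9 ± 2.70 FPKM in M14A plate and 6.14 ± 0.423 FPKM in HepaRG plate (SD, n = 3 each). Its level was thus lower in M14A printed than in M14A plate, and its part in the members' values was not tested. FOXM1 averaged 10.1 FPKM in M14A printed, 10.8 FPKM in M14A plate and 13.8 FPKM in HepaRG plate. Mitochondrially encoded genes took 13.3 and 16.4% of reads in M14A printed, 8.21 to 9.72% in M14A plate and 6.91 to 7.25% in HepaRG plate. The part of this share in the members' values was not tested. M14A plate library 1 correlated with libraries 2 and 3 of its group at 0.957 and 0.948 across genes, against 0.988 between those libraries.

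Markers of the cell types that usually express these genes were looked up in the same libraries. Of 7 goblet cell markers none reached 1 FPKM in any library, ZG16 was at 0 throughout, and their summed level was 0.0884 to 0.198 FPKM in M14A printed, 0.148 to 0.243 FPKM in M14A plate and 0.180 to 0.284 FPKM in HepaRG plate. Of 6 gastric mucous cell markers none reached 1 FPKM either, with sums of 1.09 to 1.39 FPKM in M14A printed, 0.333 to 1.09 FPKM in M14A plate and 0.623 to 1.16 FPKM in HepaRG plate. TFF2 and TFF3 were thus measured in M14A libraries in which the defining genes of goblet and gastric mucous cells were near 0. Of 6 enterocyte markers 1 reached 1 FPKM, ALPI, an intestinal alkaline phosphatase, at 2.91 and 3.61 FPKM in M14A printed, 1.97 to 2.35 FPKM in M14A plate and 0 to 0.0404 FPKM in HepaRG plate. Of 10 hepatocyte markers 5 reached 1 FPKM, with sums of 633 to 648 FPKM in M14A printed, 417 to 633 FPKM in M14A plate and 25.2 to 28.0 FPKM in HepaRG plate, led by SERPINA1. SERPINA1 alone stood at 438 to 480 FPKM in M14A printed, 262 to 459 FPKM in M14A plate and 8.75 to 10.4 FPKM in HepaRG plate. Of 8 biliary and progenitor markers 5 reached 1 FPKM, with sums of 47.9 to 51.0 FPKM in M14A printed, 26.8 to 62.2 FPKM in M14A plate and 117 to 121 FPKM in HepaRG plate, led by KRT19. KRT19 alone stood at 25.1 to 28.7 FPKM in M14A printed, 11.6 to 49.0 FPKM in M14A plate and 41.2 to 45.4 FPKM in HepaRG plate. In bulk libraries fewer cells of a type and less RNA per cell cannot be told apart, and the part of these cell types in the members' values was not tested.

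Lists of 162 other genes of mucosal secretion were read against the members, chosen from general knowledge with results of these data known. Of these genes 81 passed the filter, and in M14A plate against HepaRG plate 34 rose and 11 fell. Of these, 9 of the 34 passed the filter only through M14A libraries and 2 of the 11 only through HepaRG plate libraries, so that the filter itself favoured their calls. Over all tested genes 16.1% rose and 14.7% fell. In M14A printed against M14A plate 18 of the 81 rose and 11 fell, where 17.7% of all tested genes rose and 15.5% fell. The count of rises in printed cells rested on single libraries. It was 6 without M14A printed library 1, 5 without M14A printed library 2, 28 without M14A plate library 1, 8 without M14A plate library 2 and 11 without any 1 of the HepaRG plate libraries. The count of falls was 6 without M14A printed library 1 and 7 without M14A printed library 2. At equal FPKM totals 2 of the 81 rose and 39 fell.

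Of 18 other mucins 15 stayed below 1 FPKM in every library, among them the gel-forming mucins MUC2, MUC5AC, MUC5B and MUC6. Of the 3 tested, in M14A plate against HepaRG plate OVGP1 rose (log2 fold change 0.77, SE 0.16, limma adjusted p = 0.0074) and MUC15, a membrane mucin, fell (-1.18, SE 0.24, adjusted p = 0.0062). OVGP1 passed the filter only through its M14A libraries, so the filter favoured its call. The sialomucin CD164 was the highest of the 3 tested mucins, at 35.3 ± 3.46 FPKM in M14A printed (SD, n = 2) and 23.5 ± 5.66 FPKM in M14A plate (SD, n = 3), with an adjusted p of 0.052. Its log2 fold change was 0.59, and it passed the threshold without M14A plate library 1 at 0.39 and without M14A plate library 3 at 0.73.

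Most secretory products that accompany trefoil factors in mucosa were near silent. Of 23 goblet, gastric and airway markers 18 stayed below 1 FPKM, and in M14A plate against HepaRG plate 5 of the 5 tested rose. Of these, 4, among them OLFM4 and REG3A, passed the filter only through their M14A libraries, so nothing is read from that count, and with no filter 4 of 19 rose. OLFM4, a glycoprotein of crypt and gastric epithelium, stood at 0.713, 8.75 and 7.88 FPKM in M14A plate and at 0.0733, 0.120 and 0.0165 FPKM in HepaRG plate. Its log2 fold change was 2.31 (SE 0.57, limma adjusted p = 0.015), and 3.12 without M14A plate library 1. With no filter on low values, OLFM4 missed the threshold (adjusted p = 0.054). REG3A, a secreted antibacterial lectin with a close paralog, stood at 11.1 and 7.99 FPKM in M14A printed and 1.07, 3.66 and 3.34 FPKM in M14A plate, while 2 of the 3 HepaRG plate libraries were at 0 and the third was at 0.0603 FPKM. Within M14A, printed against plate, 3 of the 5 rose, REG3A with a log2 fold change of 1.59 (SE 0.32, adjusted p = 0.0069) and TSPAN8, a tetraspanin of digestive epithelium, with 0.75 (SE 0.15, adjusted p = 0.0065). The third, REG1A, stood at 1.91 and 1.68 FPKM in M14A printed and 1.16, 0.861 and 0.795 FPKM in M14A plate. It passed the filter only with its M14A printed libraries, so the filter favoured its call and nothing is read from that count. The count was 1 when either M14A printed library was left out. REG3A then missed the threshold without library 1 (log2 fold change 1.37), and TSPAN8 without library 2 (0.67). At equal FPKM totals both missed it, REG3A at 0.92 and TSPAN8 at 0.22, and none of the list rose while 1 fell, as also without mitochondrial genes.

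Antiproteases and defence proteins of mucosal surfaces form another list. Of its 20 genes 7 were tested, and in M14A plate against HepaRG plate 5 rose and 1 fell. Of the 5 that rose, 3, among them PI3, passed the filter only through their M14A libraries, so nothing is read from that count. PI3, the elastase inhibitor elafin, stood at 10.8 ± 2.22 FPKM in M14A plate and 0.375 ± 0.175 FPKM in HepaRG plate (SD, n = 3 each; log2 fold change 3.09, SE 0.17, limma adjusted p = 3.9e-06). S100P, a calcium-binding protein, was the gene that fell, to 4.72 ± 2.04 FPKM in M14A plate, against 38.8 ± 2.50 FPKM in HepaRG plate (-2.86, SE 0.23, adjusted p = 3.4e-05). In printed over plate M14A libraries, 5 rose and none fell. Of these, PIGR passed the filter only through its M14A printed libraries. When either M14A printed library was left out, 6 genes were tested and 3 rose. At equal FPKM totals 1 rose. SLPI, a leukocyte protease inhibitor, stood at 977 and 795 FPKM in M14A printed and at 424, 297 and 267 FPKM in M14A plate, a log2 rise of 1.45 (SE 0.21, adjusted p = 0.0018). S100A9, a subunit of calprotectin, rose by 1.18 (SE 0.21, adjusted p = 0.0044), and at equal FPKM totals its value was 0.43 and missed the threshold.

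Trefoil factors and mucins are folded and given sugar chains in the endoplasmic reticulum and Golgi. Of 19 tested disulfide isomerases and secretory endoplasmic reticulum genes, in M14A plate against HepaRG plate 7 rose and 2 fell, and 3 rose without any 1 of the HepaRG plate libraries. PDIA4, an isomerase of the same family as AGR2, rose (log2 fold change 1.11, SE 0.13, limma adjusted p = 3.0e-04). CREB3L1, a transcription factor of the secretory pathway, fell to 0.0615 ± 0.0427 FPKM in M14A plate, against 3.15 ± 0.225 FPKM in HepaRG plate (SD, n = 3 each; adjusted p = 4.2e-06). CREB3L1 passed the filter only through its HepaRG plate libraries, so the filter favoured its call. On the M14A side, printed against plate, 9 rose, ERP29 by 1.03 (SE 0.16, adjusted p = 0.0026) and KDELR1, a receptor that retrieves proteins to the endoplasmic reticulum, by 0.63 (SE 0.19, adjusted p = 0.034). That count was 2 without M14A printed library 1, 1 without M14A printed library 2, 2 without M14A plate library 2 and 4 without any 1 of the HepaRG plate libraries, and KDELR1 lost its call in each of these fits and without M14A plate library 3 (0.51). At equal FPKM totals KDELR1 was at -0.13. No gene of that list fell, and 1 did without M14A plate library 3. The direction of the list turned with the scaling, since 1 rose and 5 fell at equal FPKM totals, and 1 rose and 4 fell when mitochondrial genes were left out of the totals. It was 1 rise with only these groups in the fit and 3 with no filter. Of 13 tested genes of mucin-type O-glycosylation 4 rose and 2 fell in M14A plate against HepaRG plate, with 7 rises without M14A plate library 1 and 1 fall without HepaRG plate library 2 or 3. B3GNT3 and GCNT3, which extend and branch the sugar chains of mucins, rose by 2.00 (SE 0.29, adjusted p = 0.0011) and 1.58 (SE 0.16, adjusted p = 1.5e-04). For M14A printed over M14A plate, only ST3GAL1, which caps such chains with sialic acid, changed (-0.89, SE 0.17, adjusted p = 0.0062), and not without M14A printed library 1 (-0.78). There, 3 rose and 2 fell without M14A plate library 1, and 2 fell without M14A plate library 3, while 7 fell at equal FPKM totals.

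Transcription factors and a cytokine pathway of mucosal epithelium made up the next lists. Of 12 tested transcription factors 4 rose and 2 fell in M14A plate against HepaRG plate, with 1 fall left without HepaRG plate library 1 or 3. EHF and ELF3, epithelial factors of the ETS family, rose by 2.43 (SE 0.28, limma adjusted p = 3.0e-04) and 2.42 (SE 0.16, adjusted p = 1.1e-05). EHF passed the filter only through its M14A libraries, so the filter favoured its call. In M14A printed against M14A plate none rose and 5 fell, 2 without M14A printed library 2 and 10 at equal FPKM totals. GATA4 and GATA6, zinc finger factors of gut and liver endoderm, had log2 fold changes of -0.96 (SE 0.28, adjusted p = 0.028) and -0.88 (SE 0.18, adjusted p = 0.0066), and without M14A printed library 2 both missed the threshold at -0.67 and -0.79. Of 12 tested genes of the gp130 and STAT3 pathway 6 rose and 1 fell in M14A plate against HepaRG plate, and none fell without any 1 of the HepaRG plate libraries. IL22RA1, the receptor subunit for the mucosal cytokine IL-22, stood at 7.14 ± 0.489 FPKM in M14A plate and 0.940 ± 0.185 FPKM in HepaRG plate (SD, n = 3 each; log2 fold change 2.07, SE 0.12, adjusted p = 5.2e-06). The cytokine LIF rose by 1.22 (SE 0.18, adjusted p = 0.0011). Within M14A, printed against plate, 1 gene of that pathway rose and 4 fell, LIF by 1.20 (SE 0.20, adjusted p = 0.0032) and BCL3 by 1.31 (SE 0.30, adjusted p = 0.011). The 1 rise was lost without any 1 of the libraries other than M14A plate library 1, the falls were 2 without M14A printed library 1 and 8 at equal FPKM totals, and BCL3 missed the threshold without M14A printed library 2 (-0.89).

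Of 10 tested genes reported as binding partners, substrates or receptors of the members, 2 rose and 2 fell in M14A plate against HepaRG plate. EGFR, the growth factor receptor to which SPINK1 has been reported to bind, stood at 31.3 ± 4.46 FPKM in M14A plate and 6.51 ± 0.619 FPKM in HepaRG plate (SD, n = 3 each; log2 fold change 2.10, SE 0.15, limma adjusted p = 2.0e-05). SLC9A3R2, a scaffold protein of the same type as PDZK1, fell by 2.03 (SE 0.28, adjusted p = 7.7e-04). In printed over plate M14A libraries, only EGFR changed, with 18.0 ± 3.02 FPKM in M14A printed (SD, n = 2) and an adjusted p of 0.011 at a log2 fold change of -0.76 (SE 0.17). Without M14A printed library 1 it missed the threshold (-0.60), as it did with length and GC trends removed (-0.36), while the list held 1 rise and 3 falls without M14A plate library 1, 1 rise without M14A plate library 3 and 7 falls at equal FPKM totals.

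**Figure D4:**
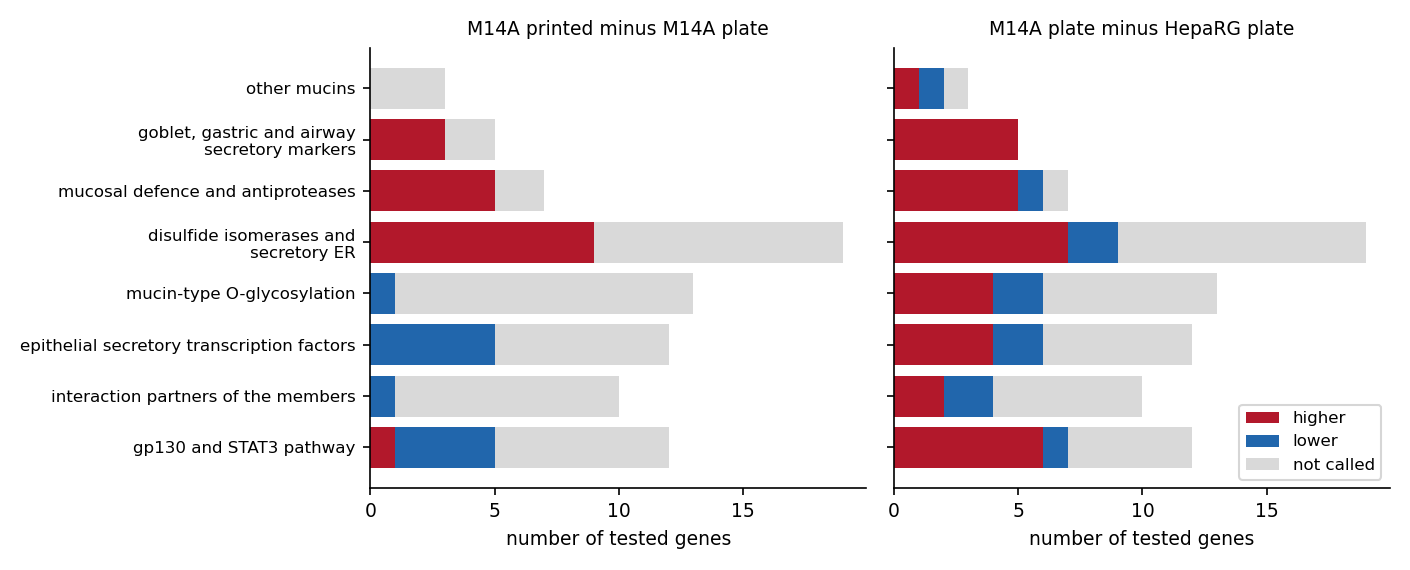
Number of tested genes (x axis) in each of 8 lists of mucosal secretion genes, split into called higher (red), called lower (blue) and not called (grey), for M14A printed minus M14A plate (left) and M14A plate minus HepaRG plate (right). On the left, 5 of 7 defence genes are higher (1 at equal FPKM totals) and 5 of 12 transcription factors lower (10 at equal FPKM totals); on the right, 5 of 5 goblet, gastric and airway markers are higher, 4 of which passed the filter only through M14A libraries.

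Position on the chromosome was not used to choose the members. Within 500 kb of the trefoil genes lie 11 other protein-coding genes, of which 6 passed the filter. In M14A plate against HepaRG plate, TMPRSS3, a membrane serine protease 5243 bases from the cluster, rose to 1.12 ± 0.177 FPKM in M14A plate, against 0.131 ± 0.0271 FPKM in HepaRG plate (SD, n = 3 each; log2 fold change 0.90, SE 0.12, limma adjusted p = 5.5e-04). SLC37A1, a sugar phosphate transporter gene 129414 bases away, rose to 2.51 ± 0.231 FPKM in M14A plate, against 0.127 ± 0.0629 FPKM in HepaRG plate (1.64, SE 0.11, adjusted p = 1.3e-05). Both genes passed the filter only through M14A libraries. PRDM15, C2CD2, ZBTB21 and WDR4, all farther from the trefoil genes than SLC37A1, were not called, with log2 fold changes of 0.01, -0.09, -0.46 and -0.36. Of the untested neighbours, ABCG1, RSPH1 and PDE9A were also higher in M14A plate without overlap, while UMODL1 and UBASH3A overlapped, all below 1 FPKM. Among all tested genes 25.7% were higher there without overlap. The trefoil genes were chosen on these values, and the filter favoured the calls of TMPRSS3 and SLC37A1. No pattern along the chromosome is therefore read from these calls. On the M14A side, printed against plate, none of the 6 rose, and PRDM15 (-0.51, SE 0.12, adjusted p = 0.012) and C2CD2 (-0.74, SE 0.15, adjusted p = 0.0064) fell. TMPRSS3, SLC37A1, ZBTB21 and WDR4 had log2 fold changes of 0.35, -0.02, -0.48 and -0.62.

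Around AGR2 and AGR3 8 other protein-coding genes lie within the same distance, and 4 were tested. TSPAN13, a tetraspanin gene 7275 bases away, rose to 16.9 ± 1.25 FPKM in M14A plate, against 4.94 ± 0.202 FPKM in HepaRG plate (SD, n = 3 each; log2 fold change 1.59, SE 0.11, limma adjusted p = 1.8e-05). ANKMY2, BZW2 and AHR had log2 fold changes of -0.29, -0.24 and -0.33 there and were not called. For M14A printed over M14A plate, BZW2 rose (0.69, SE 0.15, adjusted p = 0.0087), and not without M14A printed library 2 (0.59), while TSPAN13, ANKMY2 and AHR stood at 0.28, 0.16 and -0.11. Over both loci 3 neighbours were called in M14A plate against HepaRG plate and 6 without M14A plate library 1, with BZW2 (-0.34), WDR4 (-0.60) and ZBTB21 (-0.26) called lower. In M14A printed against M14A plate 3 were called, 1 when either M14A printed library was left out and 7 without M14A plate library 1. Among all tested genes 30.9% were called in the first of these comparisons and 33.2% in the second. Nothing is read from the counts of called neighbours. PRDM15 missed the threshold when either M14A printed library was left out (-0.48 without library 1 and -0.54 without library 2) and with length and GC trends removed (-0.091, adjusted p = 0.40), and C2CD2 without library 1 (-0.61).

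**Figure D5:**
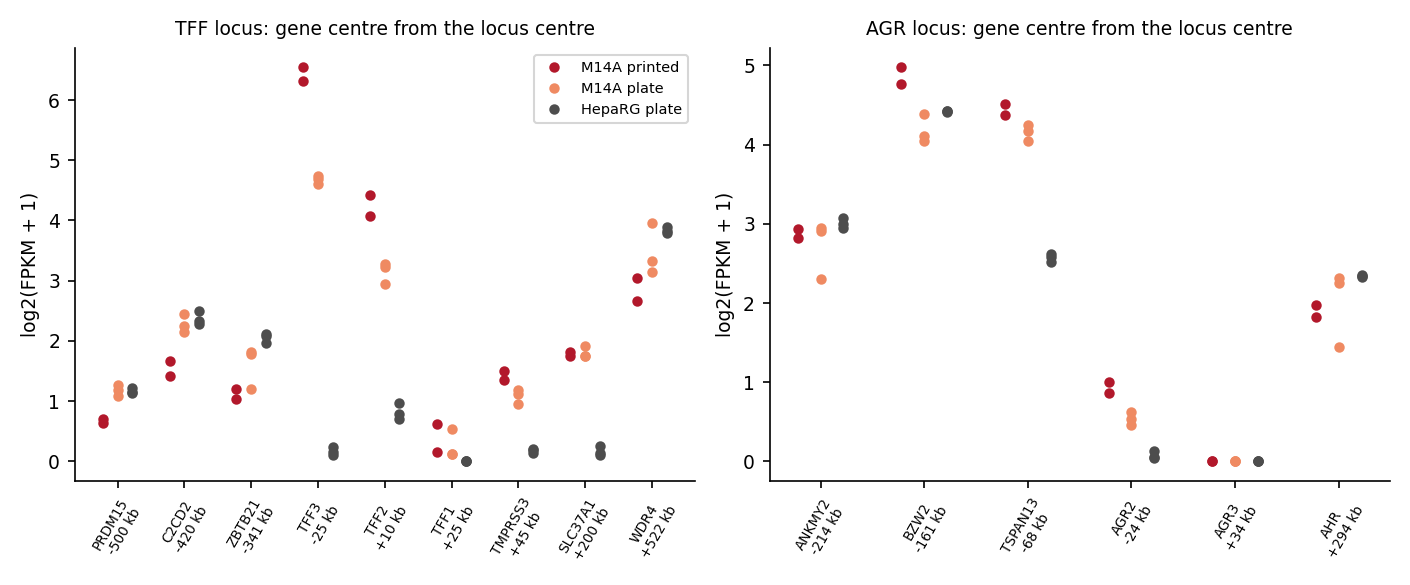
Level as log2(FPKM + 1) (y axis) of the trefoil genes and the AGR genes and of their tested protein-coding neighbours, ordered along the chromosome with the distance of each gene's centre from the centre of the locus in kb (x axis, not to scale); each point is 1 library. TFF3, TFF2, TMPRSS3 and SLC37A1 in the left panel and TSPAN13 and AGR2 in the right panel separate both M14A groups from HepaRG plate.

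Upstream sequence was available as RefSeq promoter windows for 6 of the 9 members, AGR2, AGR3, MUC1, MUC13, SPINK1 and PDZK1IP1, and was searched on both strands for short motifs. The windows below each hold a match to a searched motif, printed in capitals. HNF4 is tied to the genotype label and STAT to a list above, while no label or list above is named for NF-kappaB. The coordinates are on GRCh38.p14, the strand is minus, and positions are counted from the RefSeq start, which for MUC13 and PDZK1IP1 lies inside the GENCODE 29 gene; the SPINK1 window lies in a GENCODE 29 exon. In MUC13 the window chr3:124934752-124934871 holds an HNF4 site (CAAAGTCCA, here on the opposite strand, at -51), a motif found in 0.384% of 35116 promoters. In SPINK1 the window chr5:147831742-147831771 holds a STAT site (TTCNNNGAA, at -91), found in 7.66% of promoters. In PDZK1IP1 the window chr1:47190067-47190266 holds a match to the NF-kappaB consensus at -219, found in 11.3% of promoters.
MUC13: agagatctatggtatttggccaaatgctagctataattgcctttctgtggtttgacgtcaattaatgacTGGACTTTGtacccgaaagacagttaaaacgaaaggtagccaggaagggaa
SPINK1: caggtgacaTTCCCAGAAcctggaggccag
PDZK1IP1: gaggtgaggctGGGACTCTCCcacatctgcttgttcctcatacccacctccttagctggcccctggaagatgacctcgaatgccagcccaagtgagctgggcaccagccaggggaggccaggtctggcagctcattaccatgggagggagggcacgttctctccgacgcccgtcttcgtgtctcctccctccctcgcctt
A link between these letters and the levels of MUC13, SPINK1 or PDZK1IP1 was not tested, and MUC13 stayed below 1 FPKM in every library. Of the other motifs searched, a TATA box (TATAAA) was found in the windows of AGR3 and MUC1 and of no other of the 6, AP-1 (TGANTCA) for MUC13 and CCAAT for PDZK1IP1. Forkhead sites (TGTTTAC and TGTTTGC) were found in none of the 6. They occur in 3.42% and 3.89% of all promoters, TATAAA in 11.5%, TGANTCA in 7.71% and CCAAT in 34.6%. A match is a description of the letters and not a binding site.

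The protein-coding genes with the profile most like each member were found from the root mean square difference of log2(FPKM + 1), centred per gene, over the 8 libraries. Low genes appear to change less on this scale, so a like profile is not a like fold change and depends in part on level. For TFF3 they were the acute phase genes SAA1 (0.173) and SAA2 (0.269), whose near-identical sequences can share reads, and for PDZK1IP1 the chemokine genes CXCL1 (0.206) and CCL20 (0.334). SPINK1 was closest to LBP, the lipopolysaccharide-binding protein (0.281), and to the interferon-induced gene IFI27 (0.282). TFF2 was closest to the liver glucuronosyltransferase UGT2B7 (0.127) and to FBXO2 (0.159), and MUC1 to TSPAN10 (0.0606) and LBX2 (0.0733), in a profile with little change. UGT2B7 averaged 4.94 FPKM in M14A plate and 0.0855 FPKM in HepaRG plate, where TFF2 averaged 7.96 and 0.775 FPKM. SAA1 averaged 2559 ± 179 FPKM in M14A printed (SD, n = 2), 1005 ± 79.8 FPKM in M14A plate and 40.2 ± 1.46 FPKM in HepaRG plate (SD, n = 3 each). CXCL1 averaged 366 ± 32.1 FPKM in M14A printed, 172 ± 21.03 FPKM in M14A plate and 2.52 ± 0.264 FPKM in HepaRG plate. Among the 5 members that passed the filter the closest pair on this scale was TFF3 and PDZK1IP1 (0.399) and the most distant MUC1 and PDZK1IP1 (2.59). The level of PDZK1IP1 over that of TFF3 nevertheless ran from 17.1 to 160 between libraries.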

How the data were processed

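RNA of 8 libraries was sequenced by the authors from NEBNext Ultra libraries made with 1 µg RNA each, per the labels' protocols. The submitters' processing notes name HISAT2 2.0.5 and featureCounts 1.5.0-p3, while strand setting, read length and build are not stated in the sources used here. The deposited table holds FPKM for each library as the authors computed it. Its coordinates are identical to GENCODE 29 on GRCh38 for 58735 of 58735 genes, so that build is named. Column names gave each sample, with 0 columns left over. The product of FPKM and length takes whole-number steps within each library (tolerance 0.01), which gave the reads per library, and members' read ratios are scaled by that step, with exact 95% binomial intervals for counting error only.

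Tests used limma 3.58.1 in R 4.3.3 on log2(FPKM + 1) with eBayes and trend, all 8 libraries, 3 group means and 5 residual degrees of freedom, and are two-sided. The labels do not say that replicates came from separate cultures, so the p-values speak only of variation among these samples, possibly technical. The procedure was also run on simulated data with known changes. The members, the gene lists and the tests were chosen with earlier results of these data known. Named genes are the members, up to 2 called genes with the largest change per list and comparison (the most abundant gene where none was called), all tested neighbours, the 2 genes most like each member and the top marker of each list. Alternatives covered the pseudocount, the filter, 3 scalings, the groups in the fit, voom weights, a replicate block and each library left out; removal of length and GC trends was chosen after seeing the data. Promoter sequence is from RefSeq on GRCh38.p14, and coding sequence from GENCODE 29; coding sequences of other members are not reported here.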

Additional observations from a re-analysis of the deposited data

How the results depend on the processing

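In M14A plate against HepaRG plate the deposited scaling gave 2317 genes higher and 2112 lower, 34 and 11 of the list genes, and 3 called neighbours of both loci. In M14A printed against M14A plate it gave 2544 and 2226 genes, 18 and 11 list genes, and 3 neighbours. With no filter the neighbours were 5 in each comparison and the list genes higher in printed cells 10. With a filter of 5 FPKM, 1393 genes were higher and 948 lower in M14A plate, with 4 list genes lower and 1 neighbour, and in printed cells 1260 genes were lower, with 1 neighbour. At equal FPKM totals 3362 genes were lower in M14A plate, with 5 neighbours, and the share of higher genes among those called was 38.0%, where it was 52.3%. In printed cells 495 genes were then higher and 6620 lower, with 2 and 39 list genes and 6 neighbours. Equal totals without mitochondrial genes gave 5 neighbours in M14A plate and, in printed cells, 826 and 5363 genes, 2 and 32 list genes and 5 neighbours. With only the groups compared, printed cells had 1062 and 954 genes, 7 and 3 list genes and 0 neighbours. With length and GC trends removed, 3235 genes were lower in M14A plate and 5 neighbours were called in printed cells. In printed cells ST3GAL1, BCL3, KDELR1, BZW2, GATA4, PRDM15, EGFR and C2CD2 lost their calls with only the groups compared, KDELR1 and GATA4 with no filter, and KDELR1, TSPAN8, BZW2, S100A9 and REG3A at equal totals with or without mitochondrial genes. The cause was not tested.

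Leaving out each library in turn gave, in M14A plate against HepaRG plate, 1569 to 2893 genes higher and 1219 to 3224 lower, 28 to 38 and 8 to 14 list genes and 3 to 6 neighbours, and in M14A printed against M14A plate 1127 to 4040 and 1217 to 3849 genes, 5 to 28 and 6 to 16 list genes and 1 to 7 neighbours. For printed cells the highest of these counts came without M14A plate library 1 and the lowest without 1 of the M14A printed libraries. The 3224 genes lower in M14A plate came without M14A plate library 1, and the 1219 without HepaRG plate library 1. Same-numbered libraries correlated in their deviations at -0.071, 0.081 and -0.155 between M14A plate and HepaRG plate. Between M14A printed and M14A plate, which share only 2 numbers, they correlated at 0.487 and 0.365. M14A printed library 2 and M14A plate library 3, with different numbers, correlated at 0.433. Deviations of the 2 printed libraries mirror each other, so these values cannot show pairing, and the numbers were not taken as pairs. With the replicate block the counts were 2257 and 2162 genes, 32 and 11 list genes and 3 neighbours in M14A plate, and 2286 and 2094 genes, 15 and 12 list genes and 4 neighbours in printed cells; it changed the calls of KDELR1 (0.58, not called), CD164 (0.65, called) and WDR4 (-0.71, called). TFF2, TFF3, SPINK1 and PDZK1IP1 stayed above 0 in both comparisons under all 18 settings, with TFF3 between 4.30 and 7.47 in M14A plate and between 1.01 and 1.87 in printed cells.

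Log2 fold changes of named genes that turned sign were, in M14A plate, PRDM15 at equal totals (-0.11), without mitochondrial genes (-0.066) and over left-out libraries (-0.033 to 0.056). In printed cells they were, at equal totals, KDELR1 (-0.13), ANKMY2 (-0.49), TSPAN13 (-0.44), CD164 (-0.15), BZW2 (-0.038) and TMPRSS3 (-0.086). Without mitochondrial genes they were ANKMY2 (-0.34) and TSPAN13 (-0.27), and with length and GC trends removed ANKMY2 (-0.043), TSPAN13 (-0.049) and SLC37A1 (0.19). SLC37A1 was at 0.00066 with median-ratio scaling. Over left-out libraries ANKMY2 ran from -0.051 to 0.27, AHR from -0.39 to 0.052 and SLC37A1 from -0.056 to 0.029. Depth limits TFF1, AGR2, AGR3 and MUC13, which had at most 128 reads in a group, and 2 printed libraries limit each value in printed cells.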
